A study of Mus musculus with 24 samples.

Results

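The genes described here are members of the nuclear receptor family other than those of the circadian clock and those that sense drugs and other xenobiotics. The list holds 37 genes: the fatty acid sensors Ppara, Pparg and Ppard, the retinoid X receptors Rxra, Rxrb and Rxrg, the retinoic acid receptors Rara, Rarb and Rarg, the thyroid hormone receptors Thra and Thrb, and the vitamin D receptor Vdr. It goes on with the steroid receptors Esr1, Pgr, Nr3c1 and Nr3c2, the oestrogen-related receptors Esrra, Esrrb and Esrrg, the oxysterol receptors Nr1h2 and Nr1h3, and the hepatocyte nuclear factors Hnf4a and Hnf4g. The rest are the testicular receptors Nr2c1 and Nr2c2, the COUP factors Nr2f1, Nr2f2 and Nr2f6, the NR4A receptors Nr4a1, Nr4a2 and Nr4a3, and Nr5a1, Nr5a2, Nr6a1, Rora, Rorb and Nr0b1. Members were found by their symbol in the platform annotation, and for each gene the probe used is the one that was brightest on average over all 24 arrays. A probe was found for 35 of the 37, among 16593 genes named on the arrays. No probe was annotated to Nr1h2 or Nr3c2, so their transcripts are not analysed here. The 35 genes have 56 probes, 21 genes with 1 probe and 14 with several.

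The 24 Illumina bead arrays fall into 8 groups of 3: wild-type (WT) and Glo1+/- mice, each in gonadal adipose tissue, kidney, aorta and liver. Glo1+/- mice carry a heterozygous knockout of Glo1, which encodes glyoxalase 1, the enzyme that clears the reactive sugar by-product methylglyoxal. Per the labels all mice were female C57BL/6J animals of 36 weeks on standard chow with no further treatment, and the mutant line had been re-derived by implanting embryos into a WT female. Whether equal replicate numbers in 2 tissues mark 1 animal is not stated in the labels, and nothing says how the RNA samples of a group were separated, so the p-values measure the spread between these samples only.

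Nuclear receptors are transcription factors, most of which are switched by small lipid-soluble ligands such as fatty acids, oxysterols, retinoids, steroids, thyroid hormone or vitamin D. Many bind DNA as a pair with a retinoid X receptor, at sites built from the half-site AGGTCA, while oestrogen-related receptors, NR5A and ROR proteins bind an extended half-site as monomers. Orphan members such as the COUP factors and Nr6a1 often repress genes, and several share sites with the ligand-bound receptors. In metabolic tissues they set the programmes of fat storage (PPAR gamma in adipocytes), fatty acid oxidation (PPAR alpha), bile acid and lipoprotein genes (HNF4 alpha and NR5A2 in liver) and mineral balance (the vitamin D receptor in kidney).

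Because these proteins can act on each other's genes, the promoters of the members were searched for that half-site on both strands, from 250 bases before to 50 after each start in RefSeq (GRCm38.p6). Promoters were found for 33 of the 37 listed genes, Nr1h2 and Nr3c2 among them. They were 54 in all, and AGGTCA was in 10 of the promoters, from 9 genes. That is 18.5%, against 16.3% of all 32851 promoters of that length. The extended half-site TCAAGGTCA, which itself contains AGGTCA, was in none of the 54 and in 0.423% of all promoters, the direct repeat of AGGTCA with any 1 base between its copies in none and in 0.0396%, and the inverted repeat, AGGTCA followed after 3 bases by TGACC, in none and in 0.0548%. Both repeats contain AGGTCA as well. A match is a description of these letters only. Shown as examples are 4 of the promoters that hold the half-site: both such promoters of Pparg and that of Rxrg, genes that were high in adipose tissue and aorta, and that of Nr5a2, which was high in liver. Those of Rxra and Nr6a1, also led by liver, hold 2 half-sites each and are not shown, nor are those of Rara, Rarg, Thrb and Nr0b1. Each is printed 5′ to 3′ on the gene's strand with the half-site in capitals.
Pparg, chr6:115360894-115361193, plus strand, half-site from base -28 relative to the start: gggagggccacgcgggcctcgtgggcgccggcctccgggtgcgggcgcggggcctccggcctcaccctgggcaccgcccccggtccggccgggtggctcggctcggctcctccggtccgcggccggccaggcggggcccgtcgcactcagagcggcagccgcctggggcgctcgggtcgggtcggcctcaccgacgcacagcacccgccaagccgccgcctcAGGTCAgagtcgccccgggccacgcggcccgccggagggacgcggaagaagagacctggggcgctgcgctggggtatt
Pparg, chr6:115362099-115362398, plus strand, half-site from base -9: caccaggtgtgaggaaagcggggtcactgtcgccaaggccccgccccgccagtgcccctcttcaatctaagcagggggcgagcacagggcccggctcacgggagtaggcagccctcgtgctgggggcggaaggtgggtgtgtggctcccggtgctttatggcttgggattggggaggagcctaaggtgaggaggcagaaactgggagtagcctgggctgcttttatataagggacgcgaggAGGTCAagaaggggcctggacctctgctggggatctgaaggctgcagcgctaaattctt
Rxrg, chr1:167618015-167618314, plus strand, half-site from base -88: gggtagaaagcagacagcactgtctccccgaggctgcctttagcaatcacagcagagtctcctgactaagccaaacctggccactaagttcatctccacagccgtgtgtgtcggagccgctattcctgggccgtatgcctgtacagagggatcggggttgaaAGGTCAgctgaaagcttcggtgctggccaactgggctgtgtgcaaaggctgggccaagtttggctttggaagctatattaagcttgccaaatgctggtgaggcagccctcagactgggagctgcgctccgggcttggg
Nr5a2, chr1:136960399-136960698, minus strand, half-site from base -64: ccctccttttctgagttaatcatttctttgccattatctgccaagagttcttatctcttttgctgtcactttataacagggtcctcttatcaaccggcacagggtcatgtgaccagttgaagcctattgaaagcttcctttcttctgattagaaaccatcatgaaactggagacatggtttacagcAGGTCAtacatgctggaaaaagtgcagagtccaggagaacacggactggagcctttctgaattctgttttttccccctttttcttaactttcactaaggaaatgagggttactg

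Values are deposited log2 array values with a floor near 8, and array medians lie between 8.23 and 8.25. Glo1 itself was lower in Glo1+/- libraries by limma in liver (-0.88 ± 0.11 on the log2 scale, adjusted p = 0.0031) and kidney (-0.88 ± 0.15, adjusted p = 0.022). It did not pass in adipose tissue (-0.90 ± 0.18, adjusted p = 0.239) or aorta (-0.63 ± 0.37, adjusted p = 0.948), where the library labelled WT 3 was at 11.22 and the one labelled Glo1+/- 3 at 11.90, against the direction of their labels. In all 24 libraries, labelled female, Xist lay at 8.10 to 8.25 and the Y-linked gene Eif2s3y at 10.33 to 11.28. Both go against that label. Some libraries carried genes of other tissues. In adipose tissue the kidney tubule gene Slc34a1 reached 13.29 and 14.36 in the libraries numbered 1, the liver gene Ahsg 13.67 and 13.14 in WT libraries 1 and 2, and the epididymis gene Lcn8 14.83 in Glo1+/- library 3. In aorta the brown adipocyte gene Ucp1 was at 14.57 to 14.82 in 5 libraries and at 8.14 in the library labelled Glo1+/- 3, where the smooth muscle gene Myh11 was at 9.13 against 11.12 to 12.15. That library went against its tissue label in other markers too: the white adipocyte gene Lep was at 14.73 in it, at 9.21 to 11.41 in the other 5 aorta libraries and at 14.38 to 15.07 in adipose tissue, and the corticotropin receptor gene Mc2r was at 10.14, 8.10 to 8.28 and 9.65 to 10.13. Over all probes its correlation was 0.969 to 0.995 with the 6 adipose libraries and 0.924 to 0.934 with the other 5 aorta libraries, and its values are given as those of the library with that label. The skeletal muscle gene Acta1 was at 14.16 in WT aorta 2 and the T cell gene Cd3d at 12.02 in WT aorta 3. In kidney the white adipocyte gene Adipoq was at 9.48 in WT library 2 and 10.57 in WT library 3 against 8.11 to 8.66 in the other 4, the brown adipocyte gene Cox8b at 10.85 in WT library 2, and Ahsg at 10.34 in WT library 1. Values without such libraries stand beside the genotype results they touch. In whole tissue, fewer cells of a type and less RNA per cell cannot be told apart.

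A member was counted as detected in a tissue when the mean of its 6 arrays lay above the 95% point of 1326 probes for olfactory, vomeronasal and trace amine receptors, genes that these tissues are not known to use. This level line was 8.16 in adipose tissue, 8.22 in liver, 8.19 in kidney and 8.19 in aorta. Above it lay 24 of the 35 members in adipose tissue, 20 in liver, 21 in kidney and 23 in aorta, beside 61.4%, 50.4%, 55.8% and 55.6% of all probes. Above the line in all 4 tissues were 18 members. The members nearest the line were Rorb (8.18) inside and Nr5a1 (8.15) outside in adipose tissue, Nr4a2 (8.31) and Rorb (8.19) in liver, Thra (8.20) and Nr3c1 (8.16) in kidney, and Nr3c1 (8.20) and Rorb (8.17) in aorta. Ppard, Rara, Thrb, Esrrg, Hnf4g, Nr2c2, Pgr, Nr4a1, Nr5a1 and Nr0b1 were above it in none. Nr5a1 and Nr0b1 are receptors of the adrenal gland and gonads, whose marker lists averaged 8.13 to 8.46 and 8.09 to 8.15 over the libraries. The probe of Nr3c1, the glucocorticoid receptor, stayed between 8.07 and 8.25 in all 24 libraries, so differences in that gene could not be read from it.

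**Figure D1:**
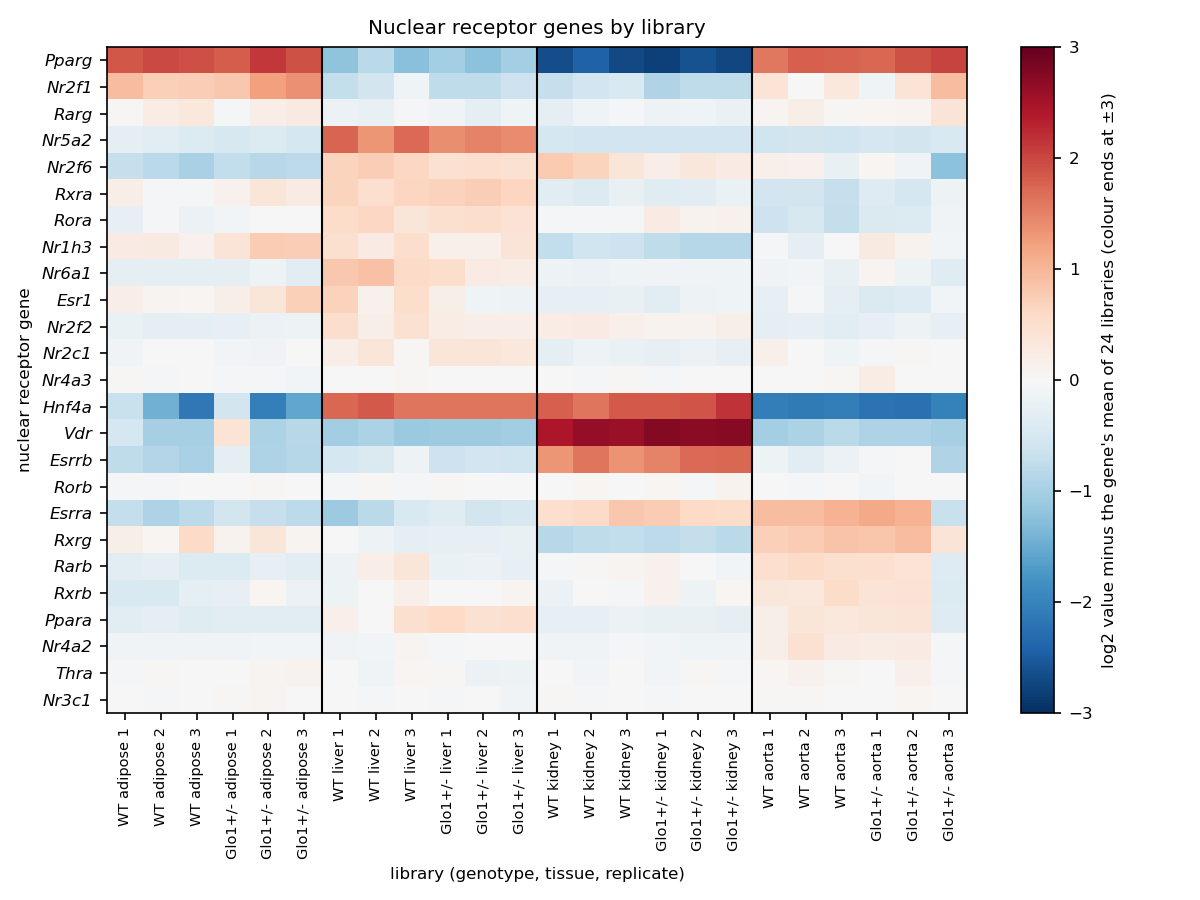
Each row is 1 of the 25 receptor genes above the level line in at least 1 tissue and each column 1 of the 24 libraries. The colour is the log2 array value minus the gene's mean over all libraries. Pparg is high in adipose tissue and aorta, Hnf4a in liver and kidney, Vdr and Esrrb in kidney and Nr5a2 in liver, and the last aorta column (labelled Glo1+/- 3) departs from the other 5 for Esrra, Esrrb and Nr2f6.

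Most members differed between tissues. By an F test over the 12 WT arrays (limma, adjusted over all probes) 22 of 35 members differed between tissues, which is 62.9%, against 46.8% of all probes. Of the 22, 21 were above the level line in some tissue. Members count by their brightest probe, while all probes include dimmer ones and those without a gene, so the shares are of unlike sets. In the 12 Glo1+/- arrays, which that test did not use, 20 members passed (57.1%, against 41.4% of all probes), and 19 passed in both. Without the library labelled Glo1+/- aorta 3, 22 members passed (49.4% of all probes), 21 of them in both. The arrays lie on 3 slides that nearly follow the tissues: adipose tissue on slide 1, aorta on slide 3, and liver and kidney split. With slide as a term in a fit of all 24 arrays, an alternative chosen after the data were seen, 17 members passed, and Rxrb, Rara, Rarb, Esrra and Nr4a2 no longer did. That fit holds the library labelled Glo1+/- aorta 3, where Rxrb, Rarb, Esrra and Nr4a2 were lower than in the other aorta libraries. The parts of that library and of the slide in these losses were not tested. Of the 22 members, WT means were highest in liver for 10, in aorta for 6, in adipose tissue for 3 and in kidney for 3, and the same tissue was highest in Glo1+/- mice for 17.

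Among the fatty acid sensors, Pparg, the driver of fat cell formation, had the widest range of all members. Its WT values were 12.90, 13.02 and 12.97 in adipose tissue, 12.63, 12.84 and 12.81 in aorta, 9.83, 10.24 and 9.79 in liver and 8.39, 8.60 and 8.34 in kidney. Adipose tissue exceeded liver by 3.01 ± 0.13 and kidney by 4.52 ± 0.13 on the log2 scale, with no overlap, while adipose minus aorta was 0.20 ± 0.13 (limma adjusted p = 0.337). The Glo1+/- libraries gave 4.66 ± 0.13 for adipose minus kidney. Both other Pparg probes were also higher in WT adipose tissue (10.11 and 8.87) and aorta (10.41 and 9.12) than in liver (8.26 and 8.16) and kidney (8.12 and 8.10), and both put aorta first. White adipocyte markers, 5 measured, averaged 12.69 to 12.95 in adipose libraries, against 8.10 to 9.11 in kidney and 8.15 to 8.43 in liver. In aorta they averaged 12.89 in the library labelled Glo1+/- 3 and 11.39 to 11.68 in the others. Brown adipocyte markers, also 5, averaged 13.87 to 14.08 in WT aorta and 9.02 to 9.28 in WT adipose libraries. The part of either list in the Pparg values was not tested. Ppara, the receptor that drives fatty acid oxidation, was higher in WT liver than in kidney by 0.43 ± 0.10 and than in adipose tissue by a contrast of -0.52 ± 0.10 (adipose minus liver, adjusted p = 0.0655 with slide as a term). WT liver and aorta could not be told apart for Ppara (liver minus aorta -0.08 ± 0.10, adjusted p = 0.648), and its level was 8.24 to 8.37 over the 6 kidney libraries. The Ppard probe lay at the floor in all 4 tissues.

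The retinoid X receptors, partners of most of the others, did not share 1 pattern: WT means were highest in liver for Rxra and in aorta for Rxrb and Rxrg. Rxra was highest in liver (9.73, 9.55 and 9.69 in WT) and lowest in aorta (8.49, 8.51 and 8.35), a difference of 1.21 ± 0.09 in WT and 1.04 ± 0.11 in Glo1+/- libraries (1.14 without the library labelled Glo1+/- aorta 3). Rxrg was at 9.63, 9.70 and 9.79 in WT aorta, 9.09, 8.98 and 9.51 in adipose tissue, 8.93, 8.78 and 8.64 in liver and 8.09, 8.16 and 8.18 in kidney, at or below the line. Its order over tissues was thus close to that of Pparg, but adipose tissue lay below aorta (-0.51 ± 0.12, adjusted p = 0.007, and -0.72, adjusted p = 0.292, with slide as a term). Rxrb differed least of the 3, from 10.62 in WT adipose tissue to 11.41 in WT aorta, and did not pass in Glo1+/- libraries or with slide as a term.

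Vdr, the receptor of active vitamin D, was a kidney gene on these arrays. It was at 11.63, 11.82 and 11.79 in WT kidney and at 11.95, 11.90 and 11.92 in Glo1+/- kidney, against 8.08 to 8.38 over all liver and aorta libraries. Kidney exceeded aorta by 3.47 ± 0.12 in WT and by 3.67 ± 0.26 in Glo1+/- mice (3.65 without the library labelled Glo1+/- aorta 3). Both other Vdr probes gave the same leading tissue in WT, at 11.29 and 9.70. In adipose tissue Vdr was at 8.68 in WT library 1 and 9.60 in Glo1+/- library 1 and at 8.20 to 8.36 in the other 4. Those 2 libraries are the ones with the highest kidney tubule markers, 10.35 and 11.27 as the mean of 8 genes, and the part of these genes in the Vdr values was not tested. Rarb, a retinoic acid receptor that is itself induced by retinoic acid, was highest in WT aorta (9.38, 9.45 and 9.35) and lowest in WT adipose tissue (8.56, 8.61 and 8.48). Rarg ranged only from 8.43 to 8.78 over WT tissue means, and Thra from 8.21 to 8.31, which did not pass the test (adjusted p = 0.254). The probes of Rara and Thrb lay below the line.

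Hnf4a, the receptor that keeps liver and tubule cells differentiated, was high in WT liver (12.26, 12.39 and 12.15) and WT kidney (12.34, 12.15 and 12.37), with liver minus kidney at -0.02 ± 0.25. It was at 8.42 to 8.47 in WT aorta, 3.84 ± 0.25 below kidney. In adipose tissue it spread from 8.39 to 9.98 over 6 libraries, highest in the libraries numbered 1 of both genotypes (9.87 and 9.98), where kidney tubule markers were highest. Nr5a2, a regulator of bile acid genes, was at 10.42, 9.99 and 10.36 in WT liver and at 10.06, 10.15 and 10.08 in Glo1+/- liver, against 8.09 to 8.14 in all kidney libraries. Liver exceeded kidney by 2.14 ± 0.10 in WT and by 1.99 ± 0.07 in Glo1+/- mice. Nr6a1, known mainly as a repressor in germ cells and embryos, also led in liver, at 9.44, 9.50 and 9.20 in WT against 8.33 to 8.55 over the WT libraries of the other tissues. Rora, which competes with the REV-ERB clock repressors for their sites, was highest in liver as well (10.76, 10.83 and 10.57 in WT) and exceeded aorta by 1.11 ± 0.10.

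The oestrogen-related receptors, which drive mitochondrial genes without a known natural hormone, split between tissues. Esrra was at 12.35, 12.34 and 12.45 in WT aorta and 11.93, 11.98 and 12.21 in WT kidney, and at 10.32 to 10.95 over the WT libraries of adipose tissue and liver. WT kidney and aorta did not pass a test of their difference (kidney minus aorta -0.34 ± 0.14, adjusted p = 0.098). Esrrb was highest in kidney, at 10.34, 10.63 and 10.35 in WT and 10.49, 10.71 and 10.73 in Glo1+/- mice. WT kidney exceeded WT aorta by 1.64 ± 0.11 and WT liver by a contrast of -1.80 ± 0.11 (liver minus kidney). The Esrrg probe was at the floor throughout.

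The COUP factors had opposite patterns. Nr2f1 was highest in adipose tissue (10.26, 10.07 and 10.09 in WT) and exceeded liver there by 1.26 ± 0.15 and kidney by 1.37 ± 0.15. Nr2f6 was lowest in adipose tissue (10.58, 10.48 and 10.32 in WT) and highest in liver (11.95, 12.03 and 11.90) and kidney (12.06, 11.94 and 11.64), with adipose minus liver at -1.50 ± 0.13. Nr2f2 was likewise higher in WT liver (8.91) and WT kidney (8.73) than in WT adipose tissue (8.28) and aorta (8.24), but adipose minus kidney did not pass with slide as a term (adjusted p = 0.0788). Nr1h3, the liver X receptor alpha that senses oxysterols, was highest in WT liver (12.22, 12.001 and 12.27) and WT adipose tissue (12.01, 12.02 and 11.88) and lowest in kidney (11.02, 11.15 and 11.14). Esr1, the oestrogen receptor alpha, led in liver in WT (9.39, 8.83 and 9.22) but in adipose tissue in Glo1+/- mice (8.87, 9.06 and 9.41). The value of 9.41 is that of Glo1+/- adipose library 3, which holds the epididymis gene. The adipose minus liver contrast of Esr1 was -0.34 ± 0.12 in WT (adjusted p = 0.0483, and 0.204 with slide as a term) and 0.45 ± 0.15 in Glo1+/- libraries. Pairs of tissues differed for 12 to 18 members in WT, fewest between adipose tissue and aorta. That pair gave 12 calls (21.9% of all probes), of which 0 passed with slide as a term. All adipose arrays are on slide 1 and all aorta arrays on slide 3, so that fit links these tissues only through liver and kidney arrays. Those tissues and the slides cannot be told apart for these genes. That fit also holds the library labelled Glo1+/- aorta 3, whose part in the losses was not tested. The other pairs ran from 14 members between liver and kidney (27.7% of all probes) to 18 between liver and aorta (32.5% of all probes), and 9 and 9 members passed with slide as a term. Adipose tissue differed from liver for 17 members (33.4% of all probes) and from kidney for 15 (30.7%), and kidney from aorta for 16 (29.1%). With each WT library left out in turn, those with genes of other tissues included, 77 of the 92 calls of a member between a pair of WT tissues passed each time, 15 were lost at least once and 0 turned in sign. Among the lost were those of Rxrb and Esr1 between adipose tissue and liver, of Rarb between adipose tissue and kidney, and of Nr1h3 between adipose tissue and aorta.

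**Figure D2:**
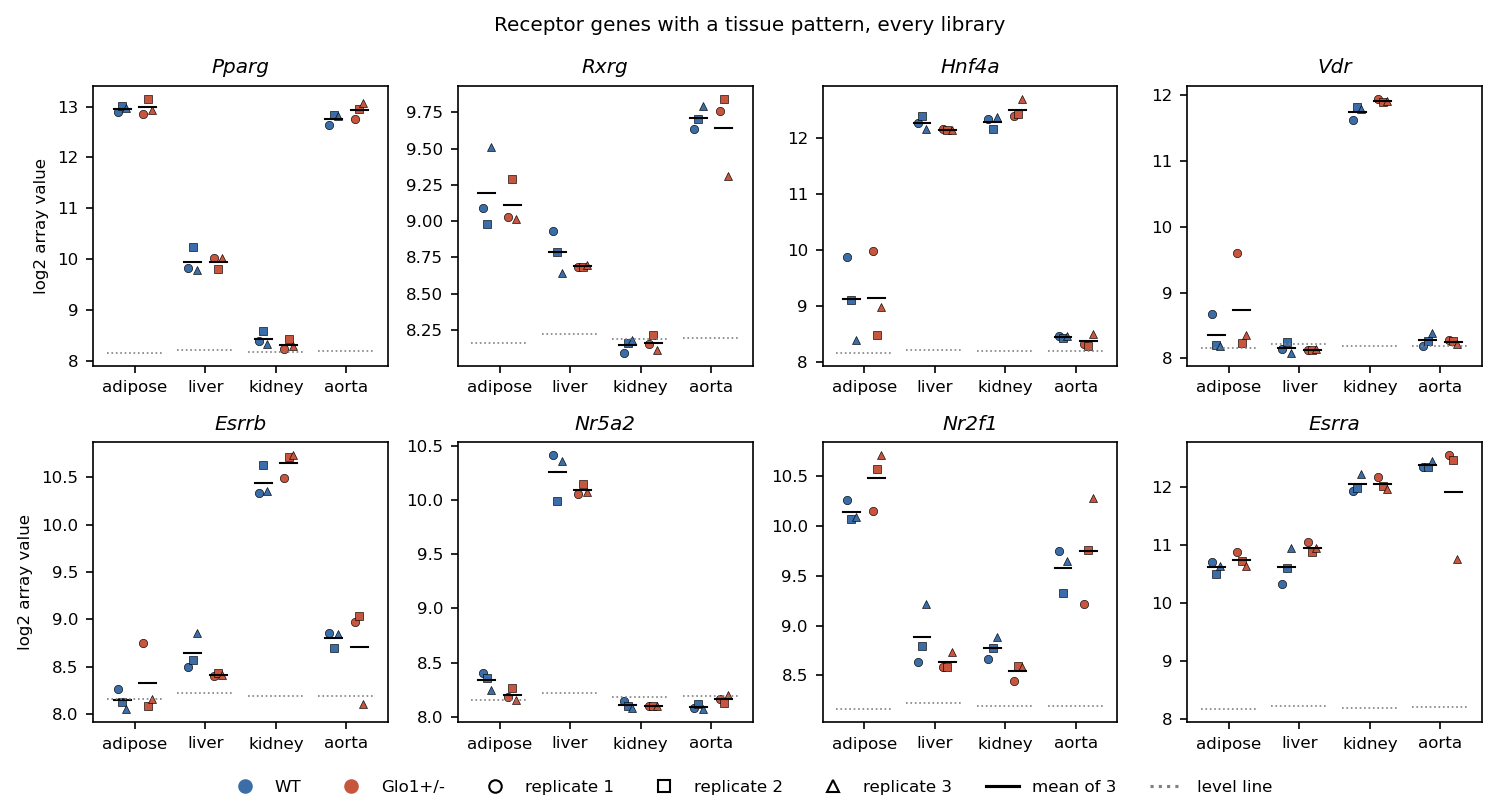
Each panel shows the log2 array values of 1 receptor gene in 4 tissues, with 1 point for each library, a bar at the mean of 3 and a dotted level line. In kidney, Vdr lies between 11.63 and 11.95 in all 6 libraries while it lies at the line in liver and aorta, and in adipose tissue the round points (replicate 1) of Hnf4a, Vdr and Esrrb stand above most of the others.

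The genotype comparison asked whether loss of 1 Glo1 copy came with a difference in receptor transcripts in any tissue. No member passed limma's test after adjustment over all probes in adipose tissue (0.00389% of all probes called, 49 probes in place of 1 with replicate pairs as a block), liver (0.658%), kidney (0.381%) or aorta (0%). None passed for the average over the 4 tissues (0.269%) or for a difference of the genotype effect between tissues (0.28%). At an unadjusted p under 0.05 there were 3 members in adipose tissue (11.4% of all probes), 7 in liver (11.6%), 4 in kidney (9.54%) and 1 in aorta (3.57%). The values below are therefore differences that did not pass adjustment, with the libraries that make them up. Named are members above the level line whose 3 WT and 3 Glo1+/- values did not overlap.

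**Figure D3:**
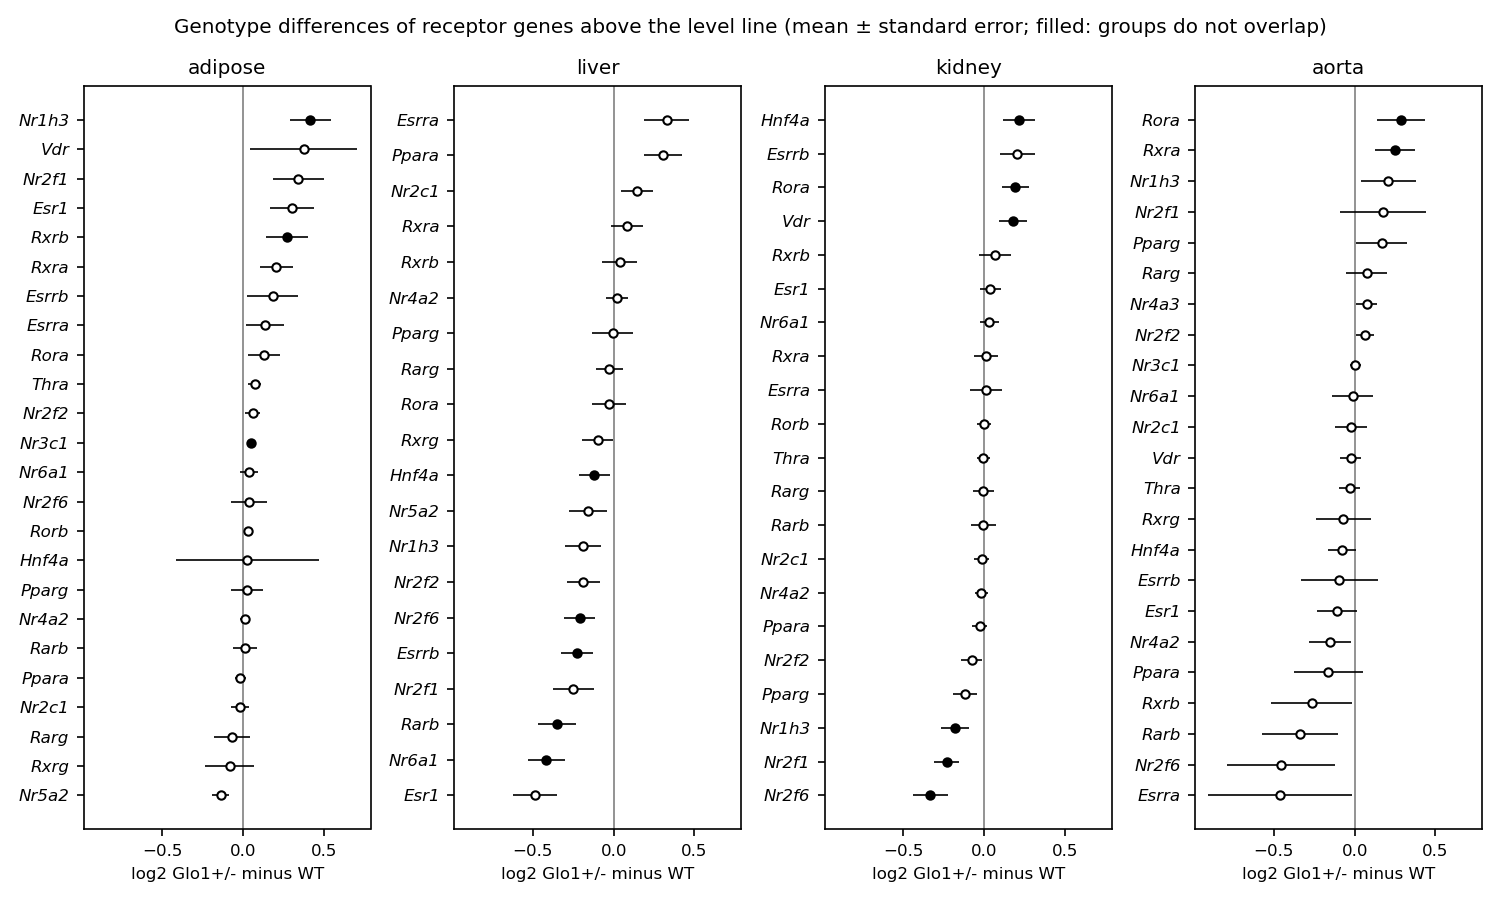
Each panel is 1 tissue and each row 1 receptor gene above the level line there; points are log2 differences of Glo1+/- minus WT with limma standard errors, and filled points mark genes whose 3 WT and 3 Glo1+/- values do not overlap. Filled points are on the positive side in adipose tissue and aorta, on the negative side in liver and on both in kidney, and the widest error bars are those of Hnf4a in adipose tissue and of Esrra in aorta.

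In adipose tissue 3 of the 24 members above the line had all Glo1+/- values above all WT values and 0 had them below, beside 9.6% and 12.1% of the probes above the line. Nr1h3 had the largest difference. Its values were 12.01, 12.02 and 11.88 in WT and 12.14, 12.52 and 12.48 in Glo1+/- mice, a difference of 0.42 ± 0.13 or 1.33-fold (limma adjusted p = 0.342). Without the libraries numbered 1, which hold kidney tubule genes, the Nr1h3 difference was 0.55, and without Glo1+/- library 3, which holds the epididymis gene, it was 0.37. Nr1h3 is also active in macrophages, and 3 of 5 macrophage markers had a probe and averaged 11.17 to 11.44 in Glo1+/- and 11.48 to 11.67 in WT adipose libraries, while C1qa alone was at 10.36 to 10.53 and 10.27 to 10.57. The part of macrophages in the Nr1h3 values was not tested. Rxrb was at 10.55, 10.55 and 10.75 in WT and 10.76, 11.08 and 10.83 in Glo1+/- mice (0.27 ± 0.13, adjusted p = 0.471), but its dimmer probe gave -0.051. Without the libraries numbered 1 the Rxrb difference was 0.31, and without Glo1+/- library 3 it was 0.30. The third gene was Nr3c1, at the floor (8.15 to 8.17 against 8.18 to 8.25). For Pparg the difference in this tissue was 0.02 ± 0.10. Over the 24 members the median difference was 0.04, against 0.00071 over all probes above the line.

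In liver 5 of the 20 members above the line had all Glo1+/- values below all WT values and 0 had them above, beside 13.4% and 10.8% of the probes above the line. The median over the 20 was -0.11, against -0.017 over all such probes. Nr6a1 was at 9.44, 9.50 and 9.20 in WT and 9.16, 8.87 and 8.86 in Glo1+/- mice, a difference of -0.42 ± 0.11 (limma adjusted p = 0.138). The closest values of the groups are those of WT library 3 and Glo1+/- library 1. Rarb was at 8.73, 9.09 and 9.25 in WT and 8.69, 8.70 and 8.63 in Glo1+/- mice (-0.35 ± 0.12, adjusted p = 0.246). Esrrb was at 8.49, 8.57 and 8.86 against 8.40, 8.44 and 8.41 (-0.23 ± 0.10, adjusted p = 0.402). For both, the Glo1+/- values lay within a narrow band and the WT values spread upwards from it. Nr2f6 (-0.21 ± 0.10, adjusted p = 0.418) and Hnf4a (-0.12 ± 0.10, adjusted p = 0.703) also did not overlap, and the dimmer Nr2f6 probe gave 0.10. For Hnf4a the groups nearly touched, at 12.1537 in WT library 3 and 12.1531 in Glo1+/- library 1.

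Further liver members are given because of their values, outside that rule. Esr1 was at 9.39, 8.83 and 9.22 in WT and 8.88, 8.56 and 8.54 in Glo1+/- mice (-0.49 ± 0.14, adjusted p = 0.147), the largest difference of a member in liver. Ppara was at 8.71, 8.53 and 9.02 against 9.14, 8.996 and 9.05 (0.31 ± 0.12, adjusted p = 0.317). Esrra was at 10.32, 10.61 and 10.95 against 11.05, 10.87 and 10.94 (0.33 ± 0.14, adjusted p = 0.378). In both, WT library 3 lay among the Glo1+/- values and WT libraries 1 and 2 lay below them.

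The liver libraries do not lie on 1 slide. WT libraries 1 and 2 are on slide 1, and WT library 3 shares slide 2 with the 3 Glo1+/- libraries, so the fit with slide as a block rests on WT library 3 alone for the genotype difference. In that fit Rarb (-0.57 ± 0.13, adjusted p = 0.0195), Esrrb (-0.44 ± 0.11, adjusted p = 0.0243) and Nr2f1 (-0.58 ± 0.12, adjusted p = 0.00972) passed. Within slide 2 these 3 and Esr1 (-0.56 ± 0.13, adjusted p = 0.0157) passed, with the lone WT library assumed to vary like the others. In the same fit with slide as a block, the difference was 0.03 for Ppara, 0.0030 for Esrra and -0.23 for Nr6a1. Without WT library 3, Nr6a1 (-0.51 ± 0.10, adjusted p = 0.0122), Ppara (0.44 ± 0.09, adjusted p = 0.0165) and Esrra (0.49 ± 0.10, adjusted p = 0.0146) passed, while Nr2f1 shrank to -0.08 and Esrrb to -0.12. WT library 3 thus decides which members pass in liver, and the slide and that library cannot be told apart. Endothelial markers, 4 measured, averaged 8.64 to 8.65 in Glo1+/- liver and 8.83 to 8.95 in WT liver, and the smooth muscle list 8.31 to 8.42 against 8.53 to 8.75. Their part in the lower values of Rarb, Esrrb, Nr2f1 and Esr1 was not tested.

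In kidney 3 of the 21 members above the line had all Glo1+/- values above all WT values and 3 had them below, beside 9.49% and 9.98% of the probes above the line, and the median of the 21 was -0.0057. The largest difference was that of Nr2f6, at 12.06, 11.94 and 11.64 in WT and 11.48, 11.63 and 11.53 in Glo1+/- mice (-0.33 ± 0.11, limma adjusted p = 0.309). Its dimmer probe gave -0.18. All 3 WT kidney libraries and Glo1+/- library 1 are on slide 2 and the other 2 Glo1+/- libraries on slide 3, so a fit with slide as a block, or within slide 2, rests on Glo1+/- library 1 alone for the genotype difference. With slide as a block the value of Nr2f6 was -0.40. Nr2f1 was at 8.66, 8.77 and 8.89 against 8.44, 8.59 and 8.59 (-0.23 ± 0.08, adjusted p = 0.318) and at -0.33 with slide as a block. These 2 COUP factors were thus below WT in kidney in all 3 libraries without passing the test. The values of Nr2f2, the remaining COUP factor, overlapped between the genotypes (-0.08, limma adjusted p = 0.753). Nr1h3 was at 11.02, 11.15 and 11.14 against 10.98, 10.90 and 10.89 (-0.18 ± 0.09, adjusted p = 0.554). On the other side were Rora, at 10.17, 10.16 and 10.18 against 10.46, 10.30 and 10.34 (0.19 ± 0.09, adjusted p = 0.502), Hnf4a (0.22 ± 0.10, adjusted p = 0.519) and Vdr (0.18 ± 0.09, adjusted p = 0.558). All 3 Vdr probes gave a positive difference, 0.18, 0.24 and 0.20. The Hnf4a difference was 0.10 with slide as a block. Without WT libraries 2 and 3, which carry adipocyte genes, the differences against WT library 1 alone were -0.51 for Nr2f6, -0.12 for Nr2f1, -0.10 for Nr1h3, 0.20 for Rora, 0.16 for Hnf4a and 0.30 for Vdr, and none passed. Smooth muscle markers in kidney averaged 9.02 to 9.24 in Glo1+/- and 9.24 to 9.53 in WT libraries, and their part in the values of Nr2f1 and Nr2f6 was not tested.

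**Figure D4:**
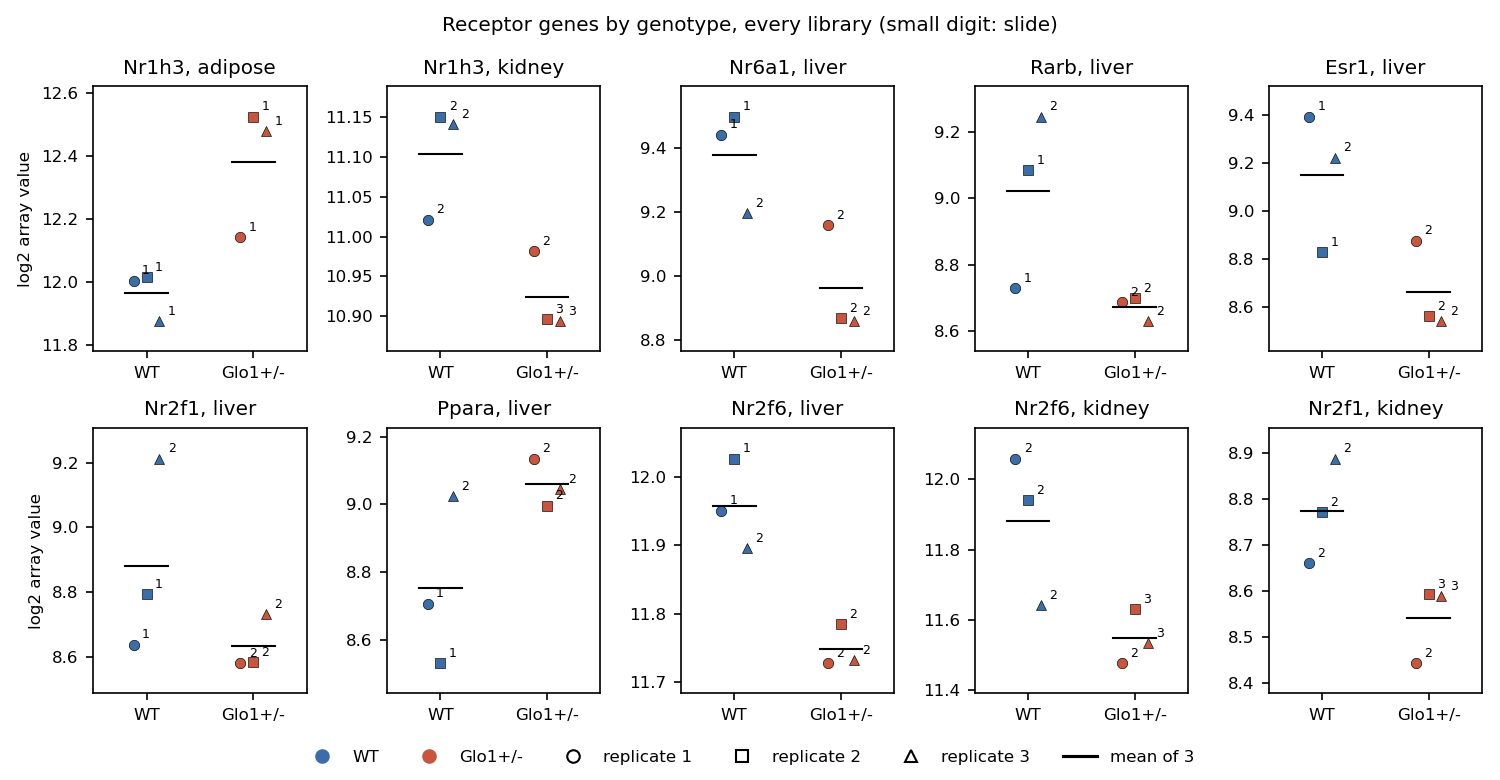
Each panel shows the log2 array values of 1 receptor gene in 1 tissue, with 1 point for each library, a bar at the mean of 3 and a small digit for the slide. In liver the WT library on slide 2 is the highest WT point for Rarb, Nr2f1 and Ppara and the lowest for Nr6a1 and Nr2f6.

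In aorta 2 of the 23 members above the line had all Glo1+/- values above all WT values and 0 had them below, beside 5.73% and 4.64% of the probes above the line, and the median was -0.025. Rora was at 9.60, 9.74 and 9.49 in WT and 9.78, 9.79 and 10.11 in Glo1+/- mice (0.29 ± 0.15, limma adjusted p = 0.948). Rxra was at 8.49, 8.51 and 8.35 against 8.67, 8.53 and 8.89 (0.25 ± 0.12, adjusted p = 0.948). In both, the library labelled Glo1+/- 3 is the highest, and without it the differences were 0.18 and 0.15. Without both libraries numbered 3 they were 0.12 and 0.10. The dimmer Rora probe gave -0.070.

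That library, which lacks the brown adipocyte gene Ucp1, also stood apart for several receptors. Its 5 white adipocyte markers averaged 12.89, against 11.39 to 11.68 in the other 5 aorta libraries. Esrra was at 10.74 in it and at 12.34 to 12.55 in the other 5 aorta libraries. Esrrb was at 8.11 against 8.70 to 9.04, and Ppara, a gene known to be high in brown fat, at 8.16 against 8.72 to 8.93. Rarb (8.49 against 9.28 to 9.45), Nr2f6 (10.04 against 11.07 to 11.44) and Rxrb (10.59 against 11.33 to 11.56) were low in it as well. Nr2f1 was high, at 10.28 against 9.22 to 9.76, as it was in adipose tissue. Without this library the genotype difference of Esrra went from -0.46 to 0.13, that of Esrrb from -0.10 to 0.20 and that of Ppara from -0.16 to 0.09, and no member passed. The 5 brown adipocyte markers averaged 9.004 in it and 13.87 to 14.29 in the others, and the part of either list in these receptor values was not tested. The 3 WT aorta libraries with high Esrra in the tissue comparison all hold Ucp1.

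**Figure D5:**
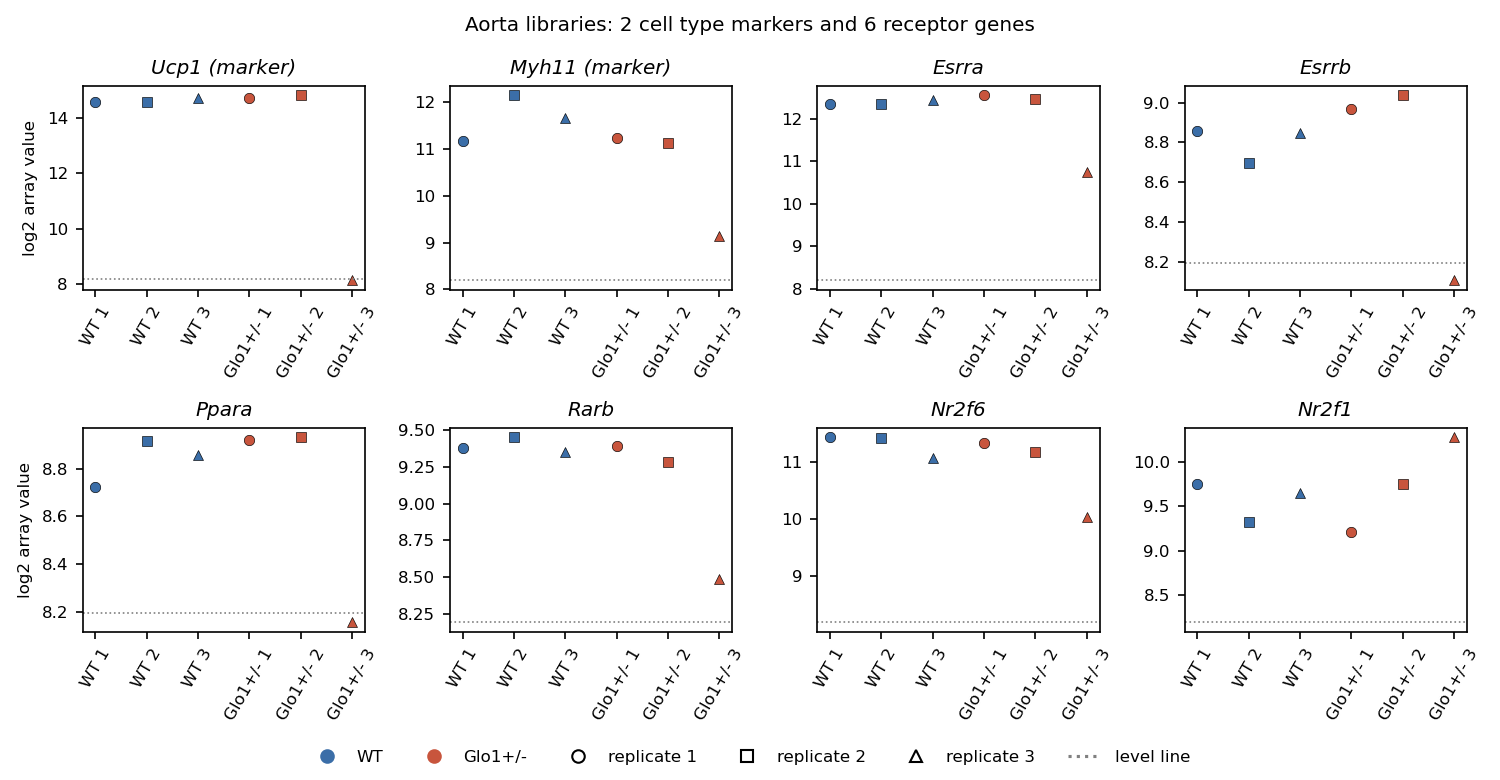
Each panel shows the log2 array values of 1 gene in the 6 aorta libraries, first the brown adipocyte marker Ucp1 and the smooth muscle marker Myh11, then 6 receptor genes, with a dotted line at the level line. The library labelled Glo1+/- 3 is the lowest of the 6 for every gene shown except Nr2f1, for which it is the highest.

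Between tissues, Nr1h3 came nearest to a genotype effect that differed. Its differences were 0.42 ± 0.13 in adipose tissue, -0.19 ± 0.11 in liver, -0.18 ± 0.09 in kidney and 0.21 ± 0.17 in aorta, and the test of their equality gave an adjusted p of 0.227 (limma F test, 24 arrays). It passed with both aorta libraries numbered 3 left out (adjusted p = 0.0385), a choice made after the data were seen, and with array weights (adjusted p = 0.0419). The dimmer Nr1h3 probe gave 0.08, 0.11, -0.13 and 0.25, so the liver value differs in sign. Esr1 had 0.30 ± 0.14 in adipose tissue and -0.49 ± 0.14 in liver (adjusted p of the difference between tissues 0.255). Without Glo1+/- adipose library 3, which holds the epididymis gene, the adipose difference of Esr1 was 0.15. Rxra and Rora had the smallest p for the average over tissues, with 0.14 ± 0.05 (adjusted p = 0.312) and 0.14 ± 0.05 (adjusted p = 0.319).

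The genes that act with these receptors were taken from 15 lists of coregulators, ligand supply and textbook targets, with 169 symbols of which 146 had a probe. The lists were chosen with earlier results of these data known, so a count within a list is no test of that list. In adipose tissue and aorta 0 of the 146 passed the genotype test. In liver 4 rose and 3 fell, and in kidney 8 rose and 1 fell, beside 0.315% and 0.342% of all probes in liver and 0.206% and 0.175% in kidney. Most of those that rose in kidney are targets of PPAR alpha: 5 of the 15 measured rose and 0 fell. They were Angptl4, an inhibitor of lipoprotein lipase (1.07 ± 0.17, limma adjusted p = 0.0198), Ehhadh of peroxisomal oxidation (0.68 ± 0.11, adjusted p = 0.0223), Cpt2 of mitochondrial fatty acid import (0.64 ± 0.09, adjusted p = 0.0111), the thioesterase gene Acot1 (0.49 ± 0.10, adjusted p = 0.0487) and the lipid droplet gene Plin2 (0.44 ± 0.08, adjusted p = 0.0475). Ppara itself lay at 8.29 to 8.37 in WT and 8.24 to 8.33 in Glo1+/- kidney, near the floor of this probe. Fits with slide as a block or within slide 2 rest on Glo1+/- library 1 alone. In both, the differences were 1.11 for Angptl4, 0.51 for Ehhadh, 0.78 for Cpt2, 0.73 for Acot1 and 0.49 for Plin2. Of the 15, 0 passed without a variance trend. The count ran from 0 to 6 over the alternatives. In liver 2 of the 15 rose, the hormone gene Fgf21 (0.58 ± 0.10, adjusted p = 0.0191) and the carnitine carrier Slc25a20 (0.57 ± 0.10, adjusted p = 0.0233), and the count ran from 0 to 5 over the alternatives.

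Further targets passed singly, and each call named in this paragraph and the one before was lost under at least 1 alternative. In kidney Pck1 of gluconeogenesis rose by 1.11 ± 0.17 (limma adjusted p = 0.0147), the retinol dehydrogenase Rdh16 by 0.67 ± 0.10 (adjusted p = 0.0147) and the coactivator Ncoa4 by 0.50 ± 0.10 (adjusted p = 0.0475), while Lpl fell by 0.49 ± 0.08 (adjusted p = 0.0147). Lpl is an adipocyte gene, and the 5 white adipocyte markers averaged 8.11, 8.55 and 9.11 in WT kidney libraries 1 to 3 and 8.10 to 8.26 in Glo1+/- kidney, and the 5 brown adipocyte markers 8.70, 9.83 and 8.98 against 8.64 to 8.69. Without WT libraries 2 and 3 the Lpl difference was -0.54 ± 0.12 (adjusted p = 0.051). In liver the clock gene Per1, which glucocorticoids induce, rose by 0.57 ± 0.10 (adjusted p = 0.0233) and the lipase gene Pnpla2 by 0.53 ± 0.11 (adjusted p = 0.0397). There Nfil3 fell by 0.77 ± 0.15 (adjusted p = 0.0318), the thyroid hormone target Me1 by 0.64 ± 0.11 (adjusted p = 0.0233) and Serpina6, the carrier of corticosterone in blood, by 0.57 ± 0.12 (adjusted p = 0.0444). No gene passed in any tissue in the lists of thyroid hormone supply, or of targets of the liver X receptors, retinoic acid receptors, the vitamin D receptor, HNF4 alpha or the oestrogen-related receptors. For HNF4 alpha targets in adipose tissue 0 of the 7 above the line were higher in Glo1+/- mice and the median was -2.01. WT libraries 1 and 2 both hold the liver gene Ahsg. With only WT library 1 left out the median was -1.59, and with only WT library 2 left out it was -1.63. It was -2.33 without both libraries numbered 1 and -1.10 without Glo1+/- library 3. Hepatocyte markers averaged 8.98 to 9.75 in Glo1+/- and 9.44 to 10.65 in WT adipose libraries, and their part was not tested. For targets of the oestrogen-related receptors in aorta 1 of 8 was higher and the median was -0.40. Without the library labelled Glo1+/- 3, 7 of 8 were higher and the median was 0.09.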

How the data were processed

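Total RNA of 24 tissue samples was measured on Illumina bead arrays, and the deposited values of 25697 probes are on a log2 or log2-like scale, made by the authors with lumi 2.32.0 per the submitters' processing notes. The sources used here do not give the background correction, transformation or normalization, and differences of dim probes may be understated. No value is missing, and no 2 arrays hold identical values. Of the probes, 23978 carry 1 gene symbol in the platform annotation, 0 several and 1719 none.

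The genotype test ran separately in each tissue, on 6 arrays, by limma 3.58.1 (lmFit, then eBayes with a trend; R 4.3.3), 2-sided, with Benjamini-Hochberg adjustment over all probes and a threshold of 0.05. A fit of all 24 arrays gave the average over tissues and an F test of their difference, and the 12 WT arrays gave the tissue contrasts. The scripts were tested on simulated data. Errors after ± are limma standard errors. With 3 arrays per group, their number limits the precision. Levels of different probes were not set against each other.

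Named in a tissue were called members and up to 6 members above the level line with the smallest p among those whose groups do not overlap. Members, gene lists, markers and tests were chosen with earlier results of these data known. The slide was read from the array barcodes in the labels. Over probes above the level line in any tissue, same-numbered WT and Glo1+/- adipose libraries deviated together, with correlations of 0.66, 0.17 and 0.33. WT library 3 with Glo1+/- library 2 gave 0.29, so only the pair numbered 1 stands clear of the others by that measure. In the other tissues the correlations of same-numbered libraries ran from -0.11 to 0.22, highest for the liver pair numbered 3. Alternatives were a fit without the trend, quantile normalization, a filter on dim probes, array weights, a replicate block, the slide, other probes of a gene, each library left out and, chosen after the data were seen, libraries with genes of other tissues left out together.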

Additional observations from a re-analysis of the deposited data

How the results depend on the processing

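With 3 arrays per group and dim probes near the floor, small differences were not detectable at this precision. The values here are counts of probes and members that passed limma's test. A member named in a tissue is counted here once for each such tissue, which gives 16 pairs of gene and tissue. Over these, 212 of 220 values under the alternatives kept their direction and their side of the threshold, 5 moved past it and 3 turned. The pairs were named because their groups do not overlap, so leaving out a library could not turn them, and none had passed. The count is therefore no test of the differences. The 3 came from dimmer probes of the gene: Rxrb in adipose tissue gave -0.051, Nr2f6 in liver 0.10 and Rora in aorta -0.070. The 5 are Nr6a1 without WT liver library 3 and, by slide, Rarb and Esrrb. The cause of these shifts was not tested.

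In adipose tissue 1 probe passed, against 0 with the filter on dim probes, 19 with array weights, 49 with the replicate block and 0 without both libraries numbered 1, a choice made after the data were seen. In liver 169 probes passed, against 4 without the trend, 340 with array weights, 1379 with slide as a block and 1687 within slide 2, with 0 members against 3 by slide as a block and 4 within slide 2. In kidney 98 passed, against 17 without the trend, 65 with the filter, 20 with slide as a block, 10 within slide 2 and 177 without WT libraries 2 and 3, also chosen after the data were seen. For the average over tissues 69 passed, against 113 without the trend, 719 with array weights and 749 without both aorta libraries numbered 3. For the difference between tissues 72 passed, against 133 without the trend, 701 with array weights and 534 without those aorta libraries, and members went from 0 to 2 with array weights and to 1 without those libraries. In aorta itself 0 passed, at an unadjusted p under 0.05 in 3.57% of probes, and 349 without both libraries numbered 3, which was also chosen after the data were seen.

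With 1 library left out at a time the calls ran from 0 to 176 in adipose tissue (176 without WT library 3), from 22 to 695 in liver (695 without WT library 3, with 0 to 3 members), from 19 to 108 in kidney (19 without Glo1+/- library 3) and 0 in aorta. They ran from 31 to 405 for the average and from 25 to 320 for the difference between tissues, highest in both without the library labelled Glo1+/- aorta 3. The tissue test called 22 members each time, with 11232 to 12187 probes.

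In liver the labels give no pairs, and same-numbered libraries had correlations of 0.07, 0.05 and 0.22. There the replicate block gave 289 probes and 1 member, Esr1 (limma adjusted p = 0.0382). It called no member in the other tissues. Over all alternatives the count of PPAR alpha targets that rose was 0 to 6 in kidney and 0 to 5 in liver, and that of glucocorticoid receptor targets 0 to 4 and 0 to 3. The cause of these changes in the counts was not tested.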
